A study of Mus musculus with 2 samples.

Results

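The immediate early transcription factor genes are a set of 10 genes, Fos, Fosb, Jun, Junb, Jund, Egr1, Ier2, Ier3, Atf3 and Nr4a1, chosen by name in both deposited tables of transcript models. All models of a gene were counted together, and 9 of the 10 genes had reads in both libraries, out of 18053 known mouse genes with a read in either library. The data are long-read RNA sequencing of total RNA from adrenal gland tissue of male B6CASTF1/J mice, which are F1 hybrids of a C57BL/6J and a CAST/EiJ parent, at 4 days of age. There was 1 group of 2 libraries, biological replicates 2 and 1, with 1 technical replicate each and no treatment, genotype or time to compare. The labels leave the animals unclear: the biosample of replicate 2 is described as from male 04 and that of replicate 1 as from male 03, but both carry the same donor identifier and the same library description. A p-value below therefore compares 2 libraries with counting error only, and not animals or conditions.

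Immediate early genes are switched on within minutes of a stimulus by transcription factors that are already present in the cell, without new protein synthesis. Fos and Jun proteins pair through leucine zippers into the dimer AP-1, which binds the motif TGACTCA, while JunB and JunD can take the place of Jun in the pair and change its strength. Egr1 is a zinc finger factor, and Nr4a1 (Nur77) is an orphan nuclear receptor that is induced by ACTH in adrenocortical cells and acts on genes of steroid synthesis.

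The stretch just before the transcription start is shown for the 6 genes whose windows hold the short motif of the cAMP response element or a variant of the AP-1 site, since cAMP response elements (CRE), which CREB binds, and serum response elements are the textbook entry points of immediate early induction. The sequences are the 250 bases before the start, on the strand of the gene, from RefSeq on GRCm38.p6. Of the 10 genes, 8 had a window in that table, and Egr1 and Ier2 are named only. Capitals mark the shorter CRE motif TGACG, or its complement read 5′ to 3′, CGTCA, in Nr4a1, Fos, Junb, Fosb and Atf3, the TATA box TATAAA in Fos, and the motif TGACATCA, a variant of the AP-1 site, in Jun.
Nr4a1, chr15:101266596-101266845, plus strand: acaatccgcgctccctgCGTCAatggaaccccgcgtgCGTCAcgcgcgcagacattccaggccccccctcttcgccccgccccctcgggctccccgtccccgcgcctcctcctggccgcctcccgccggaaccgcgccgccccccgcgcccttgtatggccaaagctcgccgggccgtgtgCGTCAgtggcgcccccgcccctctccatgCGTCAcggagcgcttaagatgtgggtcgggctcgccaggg
Fos, chr12:85473640-85473889, plus strand: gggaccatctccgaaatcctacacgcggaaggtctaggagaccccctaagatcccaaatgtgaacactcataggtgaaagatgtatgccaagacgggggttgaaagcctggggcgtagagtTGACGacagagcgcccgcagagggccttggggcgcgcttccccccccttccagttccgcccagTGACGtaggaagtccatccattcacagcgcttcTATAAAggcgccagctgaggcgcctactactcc
Junb, chr8:84978749-84978998, minus strand: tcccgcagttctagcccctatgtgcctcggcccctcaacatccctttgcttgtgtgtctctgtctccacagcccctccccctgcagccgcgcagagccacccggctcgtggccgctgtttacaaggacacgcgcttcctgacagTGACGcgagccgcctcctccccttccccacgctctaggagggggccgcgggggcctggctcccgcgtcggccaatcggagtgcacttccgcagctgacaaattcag
Fosb, chr7:19310046-19310295, minus strand: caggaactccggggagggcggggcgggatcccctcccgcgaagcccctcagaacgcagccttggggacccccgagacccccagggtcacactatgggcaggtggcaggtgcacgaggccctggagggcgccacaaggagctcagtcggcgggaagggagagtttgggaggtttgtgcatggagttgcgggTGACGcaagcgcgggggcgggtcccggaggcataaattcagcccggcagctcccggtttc
Atf3, chr1:191183334-191183583, minus strand: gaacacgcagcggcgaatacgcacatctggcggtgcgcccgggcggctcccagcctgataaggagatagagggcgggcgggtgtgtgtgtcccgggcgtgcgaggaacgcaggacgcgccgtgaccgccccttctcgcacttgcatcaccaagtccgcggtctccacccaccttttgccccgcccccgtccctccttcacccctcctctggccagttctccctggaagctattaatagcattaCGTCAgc
Jun, chr4:95052223-95052472, minus strand: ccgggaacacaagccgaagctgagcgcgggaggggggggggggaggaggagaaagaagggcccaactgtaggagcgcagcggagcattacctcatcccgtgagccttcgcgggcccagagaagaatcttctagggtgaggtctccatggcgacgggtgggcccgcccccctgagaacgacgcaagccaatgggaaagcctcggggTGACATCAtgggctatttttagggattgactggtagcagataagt

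The shorter CRE motif TGACG stood in 5 of the 8 windows, those of Fos, Fosb, Junb, Atf3 and Nr4a1, on either strand, and in 17.8% of the 32851 mouse windows of the same length. Nr4a1 held 4 copies, which begin at positions -233, -213, -69 and -40 from its start, and Fos held 2, at -129 and -66. The full site TGACGTCA was in 0 of the 8 windows and in 1.55% of all, and the AP-1 site TGACTCA in 0 of 8 and 4.46% of all. The variant TGACATCA stood at position -45 of Jun and in 2.93% of all windows. The EGR site GCGNGGGCG was in the windows of Fosb and Nr4a1, 2 of 8, and in 4.70% of all, and it overlapped a GC box (GGGCGG) in both. That GC box was in 6 of 8 windows and 32.7% of all, and CCAAT in 3 of 8 and 33.8% of all. The CArG box, the core of the serum response element, was in 0 of 8 windows and 1.47% of all, and the TATA box was in 1 of 8 and 12.4% of all. Bases more than 250 before the start, and any of Egr1 and Ier2, were not searched, so a 0 does not speak for sites there. Both strands were searched for every motif, and TGACG is also part of the full site. These are letter matches in a short window, and the RefSeq window of Jund ends 1210 bases before the start of the GENCODE transcript that carried its reads. The windows with TGACG held 58.4% (Fos) to 74.4% (Nr4a1) G and C, and those with the GC box 54.4% (Ier3) to 74.4%. The median over all windows was 52.4%, and the shares of all windows were not matched for base composition. Fosb, without a read in either library, and Nr4a1, with reads in both, both hold TGACG.

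Depth and tissue make-up set the frame for the values. The libraries held 810818 mouse reads in replicate 2 and 688436 in replicate 1, so that 1 read equals 1.23 and 1.45 CPM, the unit of level used here (reads of a gene per 1000000 mouse reads), and a count of 0 allows up to 3 reads, which is 3.70 and 4.36 CPM. Adrenal cortex markers (8 of 8 with reads) summed to 31587 CPM in replicate 2, against 46250 CPM in replicate 1, and chromaffin markers (8 of 8) to 11064 and 14526 CPM, with none of either list at 0. The cortex markers differed among themselves: in replicates 2 and 1, Cyp21a1 had 9696 and 18259 CPM, and Cyp11a1 11396 and 11664 CPM. Liver markers (8 of 8) came to 16069 CPM in replicate 2, against 444 CPM in replicate 1, with log2 ratios of replicate 2 over replicate 1 between 4.68 and 6.02. In the same order of libraries, red blood cell markers summed to 7484 and 3672 CPM, fibroblast and capsule markers to 3055 and 1824 CPM, skeletal muscle markers to 2465 and 1412 CPM, and fat markers to 2332 and 1790 CPM. Of the 5 fat markers, 1 was lower in replicate 2, Plin1 at 226 and 266 CPM. Macrophage markers at 334 and 343 CPM were close between the libraries in sum. Of the 5 tested, 4 were lower in replicate 2, and Lyz2 was higher, at 72.8 and 45.0 CPM. Endothelial markers summed to 770 and 815 CPM, but Pecam1 had 16 and 37 reads and Kdr 19 and 4 reads. Pdgfra in replicate 1 was the single marker at 0. The part of these tissue differences in the results below was not tested.

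The Jun family carried most of the reads. Jund (ENSMUSG00000071076.6, chromosome 8, 70698949 to 70700616, plus strand), the Jun family member known for high basal expression, had 650 reads (802 CPM) in replicate 2 and 745 reads (1082 CPM) in replicate 1, a mean of 942 ± 198 CPM (SD, n = 2). It ranked 118th of 16618 known genes by CPM in replicate 2 and 67th of 15535 in replicate 1, and it alone held 71.3% (95% Wilson interval 68.3 to 74.1) and 64.1% (61.3 to 66.8) of the reads of the 10 genes. Junb (ENSMUSG00000052837.6, chromosome 8, 84974484 to 84978718, minus strand), a weaker activator than Jun that can oppose it, had 86 reads (106 CPM) in replicate 2 and 166 reads (241 CPM) in replicate 1, a mean of 174 ± 95.5 CPM. Both were higher in replicate 1, and for Junb the counting intervals of 84.8 to 131 CPM in replicate 2 and 206 to 281 CPM in replicate 1 did not overlap. Jun (ENSMUSG00000052684.4, chromosome 4, 95049034 to 95052222, minus strand), the founding AP-1 subunit, had 36 reads (44.4 CPM) in replicate 2 and 42 reads (61.0 CPM) in replicate 1, a mean of 52.7 ± 11.7 CPM, with overlapping intervals. Summed over the family, Jun, Junb and Jund made 84.6% and 81.9% of the reads of the 10 genes. In whole tissue, fewer cells of a type and less RNA per cell cannot be told apart.

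Fos and Fosb had few reads or none. Fos (ENSMUSG00000021250.13, chromosome 12, 85473890 to 85477273, plus strand), the classical partner of Jun, had 6 reads (7.40 CPM) in replicate 2 and 14 reads (20.3 CPM) in replicate 1, a mean of 13.9 ± 9.15 CPM. Fosb (ENSMUSG00000003545.3, chromosome 7, 19302696 to 19310051, minus strand), a second Fos family member, had no read in either library (0 of each), so up to 3.70 CPM in replicate 2, against 4.36 CPM in replicate 1 would go unseen. Fos was detected on few reads in both libraries, and Fosb was not detectable at this depth. Jun family reads stood at 772 in replicate 2 and 953 in replicate 1, against 6 and 14 reads of Fos and Fosb together. Fosl2, a Fos family member outside the set, had 15 reads (18.5 CPM) in replicate 2 and 16 reads (23.2 CPM) in replicate 1.

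Nr4a1 (ENSMUSG00000023034.7, chromosome 15, 101254269 to 101274795, plus strand) had 35 reads (43.2 CPM) in replicate 2 and 57 reads (82.8 CPM) in replicate 1, a mean of 63.0 ± 28.0 CPM. Egr1 (ENSMUSG00000038418.7, chromosome 18, 34859823 to 34864984, plus strand) had 1 read (1.23 CPM) in replicate 2 and 12 reads (17.4 CPM) in replicate 1, a mean of 9.33 ± 11.5 CPM. The Egr1 intervals, 0.0312 to 6.87 CPM in replicate 2 and 9.01 to 30.4 CPM in replicate 1, did not overlap, and the spread over the libraries exceeded the mean. Of the 12 reads in replicate 1, however, 8 lay on 1 model that keeps intron 1 unspliced. Without that model Egr1 had 1 read in replicate 2 and 4 reads in replicate 1.

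Ier2 (ENSMUSG00000053560.4, chromosome 8, 84661331 to 84662852, minus strand), a short nuclear protein of the immediate early response, had 89 reads (110 CPM) in replicate 2 and 117 reads (170 CPM) in replicate 1, a mean of 140 ± 42.6 CPM. Ier3 (ENSMUSG00000003541.6, chromosome 17, 35821684 to 35822923, plus strand), a stress-induced regulator of cell survival that is not itself a DNA-binding factor, had 7 reads in each library (8.63 CPM in replicate 2, 10.2 CPM in replicate 1), a mean of 9.40 ± 1.09 CPM. Atf3 (ENSMUSG00000026628.13, chromosome 1, 191170296 to 191218039, minus strand), a stress-induced bZIP factor, had 2 reads (2.47 CPM) in replicate 2 and 3 reads (4.36 CPM) in replicate 1, a mean of 3.41 ± 1.34 CPM. Atf3 was at or under the 3 reads that a count of 0 allows in both libraries, while Ier2 stood far above it.

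**Figure D1:**
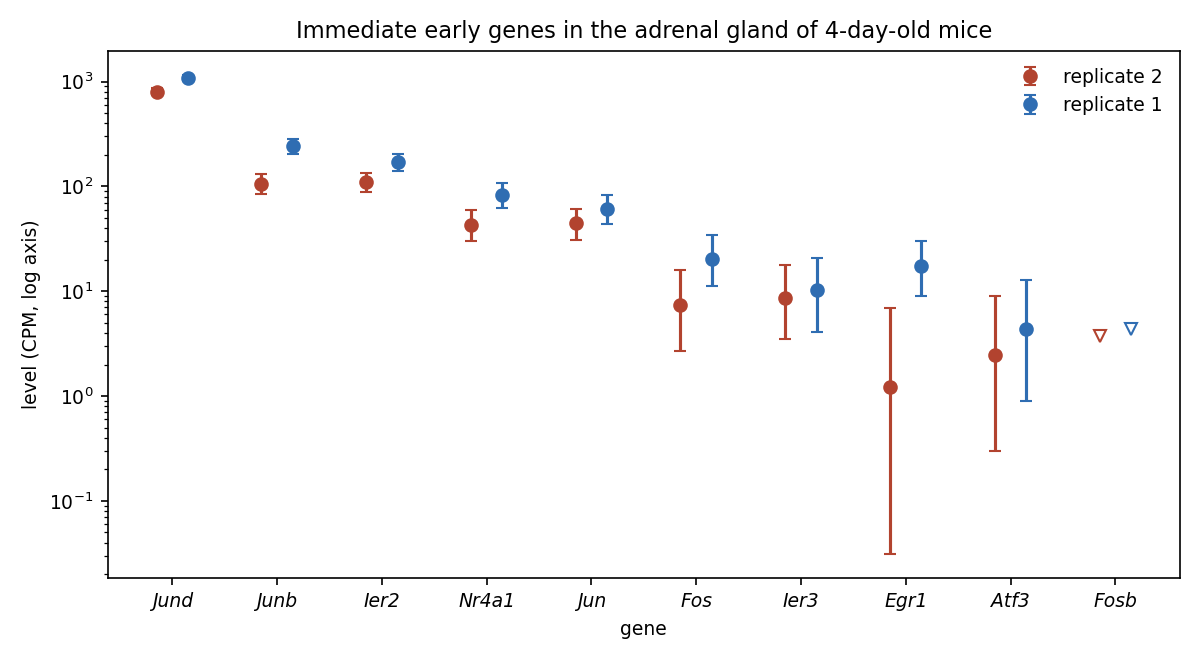
Level of each gene in CPM on a log axis, replicate 2 in red on the left and replicate 1 in blue on the right, with 95% Poisson intervals of the read counts. Open triangles give the 3-read limit for Fosb, which had 0 reads, and Jund stands highest at 802 and 1082 CPM.

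Per kilobase of the main transcript, the mean levels were 565 CPM per kb for Jund, 96.0 for Junb, 91.9 for Ier2, 25.4 for Nr4a1, 16.5 for Jun, 8.31 for Ier3, 6.58 for Fos, 2.08 for Egr1 and 1.72 for Atf3. Jund stood apart from Junb, with 481 and 649 CPM per kb against 58.6 and 133 CPM per kb for Junb in replicates 2 and 1. Junb and Ier2 overlapped over the libraries, as did Nr4a1 and Jun, Ier3 and Fos, Fos and Egr1, and Egr1 and Atf3. Ier2 and Nr4a1 did not overlap, nor did Jun and Ier3. Without division by length, in CPM, the order was the same except that Fos (13.9 CPM) came before Ier3 (9.40 CPM). A long read stands for 1 transcript, so both scales are given.

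By level over the 2 libraries on the log2 scale, the tested genes nearest to Jund were Tsc22d1 (793 CPM in replicate 2, 1073 CPM in replicate 1), Itm2c (750 and 1136 CPM) and Acsbg1 (723 and 1071 CPM). Nearest to Junb were Cyp2f2 (113 and 222 CPM), Suds3 (120 and 216 CPM) and Prss35 (122 and 211 CPM). Likeness over 2 libraries is a matter of level and of the one ratio between them only.

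All 9 members with reads had a lower CPM in replicate 2. Of the 9, 6 reached the minimum of 20 reads over both libraries and were tested by Fisher's exact test (two-sided), which compares the reads of the gene against the remaining mouse reads of each library, and p-values were adjusted by Benjamini-Hochberg over all 8276 genes tested. A call needed an adjusted p below 0.05 together with a log2 ratio, replicate 2 over replicate 1 with 0.5 CPM added, whose size was 1 or more. Of the 6, 1 was called, Junb, and it was lower in replicate 2, where 0.967% of all tested genes were called lower and 3.23% in either direction. All 6 log2 ratios lay below 0 and below the median of all tested genes of -0.10, and 58.8% of all tested genes were below 0. The median log2 ratio of the 6 was -0.78. Log2 ratios of -1 or lower were seen for 2 of the 6, Junb and Fos, and for 2.97% of all tested genes.

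Junb had 0.440 times the CPM in replicate 2 that it had in replicate 1 (exact 95% interval 0.335 to 0.574), a log2 ratio of -1.18 with a Benjamini-Hochberg adjusted p of 1.57e-08 by Fisher's exact test. The call held under the scaling, pseudocount and model alternatives. Of these, a pseudocount does not enter the exact test, and the model alternatives took 1 read from Junb. The call ended, at a log2 ratio of 0.11 (adjusted p 0.405, Fisher's exact test), where the opposite-strand reads over the annotated body of Junb were added. Those reads were 937 in replicate 2 and 639 in replicate 1, all assigned to Prdx2. Jund had a log2 ratio of -0.43 with an adjusted p of 1.15e-06 by the same exact test, under the fold needed for a call. With the adjusted p alone, 4 of the 6 passed and all were lower, where 4.1% of all tested genes passed as lower and 7.93% in either direction: Junb, Jund, Ier2 and Nr4a1. Ier2 had a log2 ratio of -0.63 (adjusted p 0.0296, Fisher's exact test) and Nr4a1 one of -0.93 (adjusted p 0.0330, Fisher's exact test). These passes of Ier2 and Nr4a1 ended under TMM or DESeq2 scaling, with known models only and with no read minimum. Over the 8 alternatives other than read minimums, the adjusted p of Fisher's exact test ran from 0.0296 to 0.101 for Ier2 and from 0.0330 to 0.0888 for Nr4a1. Jun had a log2 ratio of -0.45 (adjusted p 0.507, Fisher's exact test) and did not pass. Its ratio was close to that of Jund, but it had 36 and 42 reads in replicates 2 and 1, against 650 and 745 for Jund. Passing thus depends on the read count of a gene. The shares of all tested genes, here and for the lists below, were not matched for read count.

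Fos held exactly the 20 reads that the test needs, and its log2 ratio of -1.40 gave an unadjusted p of 0.0415 and an adjusted p of 0.236 by Fisher's exact test, so it did not pass. Egr1, with 13 reads in all, was under the minimum, and its CPM in replicate 2 was 0.0708 times that in replicate 1 (exact 95% interval 0.00166 to 0.478). With a minimum of 10 reads it was tested and called lower, at an adjusted p of 0.0203 by Fisher's exact test, and with no minimum at 0.0350, but 8 of its 12 reads in replicate 1 lie on a genomic model, and without genomic models it has 5 reads in all and is under the minimum of 10. Ier3 (log2 ratio -0.22, or -0.61 with known models only) and Atf3, with at most 3 reads a library, had too few reads for the test. Summed over all 10 genes, the level was 1125 CPM in replicate 2, against 1689 CPM in replicate 1, a ratio of 0.666 (0.610 to 0.727), and without Jund 323 and 607 CPM, a ratio of 0.532 (0.454 to 0.623). Beside this, the adrenal cortex markers had a median log2 ratio of -0.47 with 8 of 8 lower, the chromaffin markers one of -0.32 with 8 of 8 lower, and the liver markers one of 5.59 with 8 of 8 higher. Single ratios ran from -0.913 (Cyp21a1) to -0.0336 (Cyp11a1) in the cortex list and from -0.533 (Th) to -0.0715 (Phox2a) in the chromaffin list. The part of tissue make-up in the lower levels of the immediate early genes in replicate 2 was not tested.

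**Figure D2:**
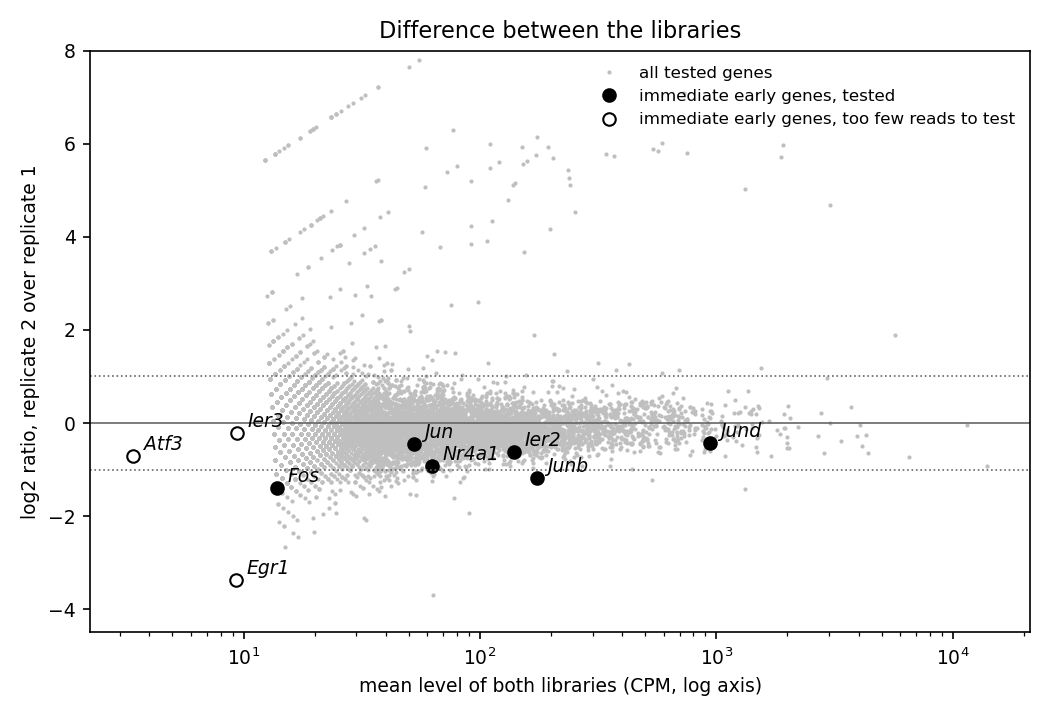
Log2 ratio of replicate 2 over replicate 1 against the mean level in CPM (log axis) for all 8276 tested genes in grey and the immediate early genes in black, open where they had too few reads to test. Dotted lines mark log2 ratios of 1 and -1, and all 9 genes with reads lie below 0, with Junb, Fos and Egr1 below -1.

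Reads were assigned to transcript models of the TALON program, which are known (all splice sites and the chain annotated), incomplete (a piece of an annotated chain), a new combination of annotated splice sites, models with a new splice site, or genomic (not fully spliced or outside the annotated structure). Jund, Jun and Ier2, which have a single exon, had 100% of their reads on known models in both libraries, and Junb had 85 of 86 in replicate 2 and 166 of 166 in replicate 1. A single-exon gene has no intron chain to match, so its known share says little about completeness. Of all genes with at least 20 reads in each library, the median share on known models was 78.8% in replicate 2 and 83.1% in replicate 1. Of the 5 members with enough reads, 0 were called for a difference in this share (Fisher's exact test, two-sided, adjusted by Benjamini-Hochberg, and at least 10 points), 0 had an unadjusted p under 0.05, and 0.55% of 5453 genes were called.

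Nr4a1, the one multi-exon member with more than 20 reads in each library, had 30 of 35 reads on known models in replicate 2 (85.7%, Wilson interval 70.6 to 93.7) and 49 of 57 in replicate 1 (86.0%, 74.7 to 92.7). Its main transcript Nr4a1-201, with 7 exons, took 27 of 35 reads in replicate 2 (77.1%, 61.0 to 87.9) and 48 of 57 in replicate 1 (84.2%, 72.6 to 91.5). Nr4a1-202, whose first exons lie upstream and which starts at position -12577 from the start of Nr4a1-201, took 3 of 35 reads in replicate 2 and 1 of 57 in replicate 1. The main transcript led in both libraries, and the upstream start was seen in both on few reads. The 5 introns after the first were spliced in nearly all reads of models that span them: intron 2 in 32 of 33 reads in replicate 2 and 54 of 54 in replicate 1, and intron 6 in 35 of 35 and 55 of 56. The 10 models with reads included 4 incomplete ones, all sharing the 3′ end with fewer exons at the 5′ end, with 3 reads in replicate 2 and 6 in replicate 1. In replicate 2, 1 read retained intron 2.

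**Figure D3:**
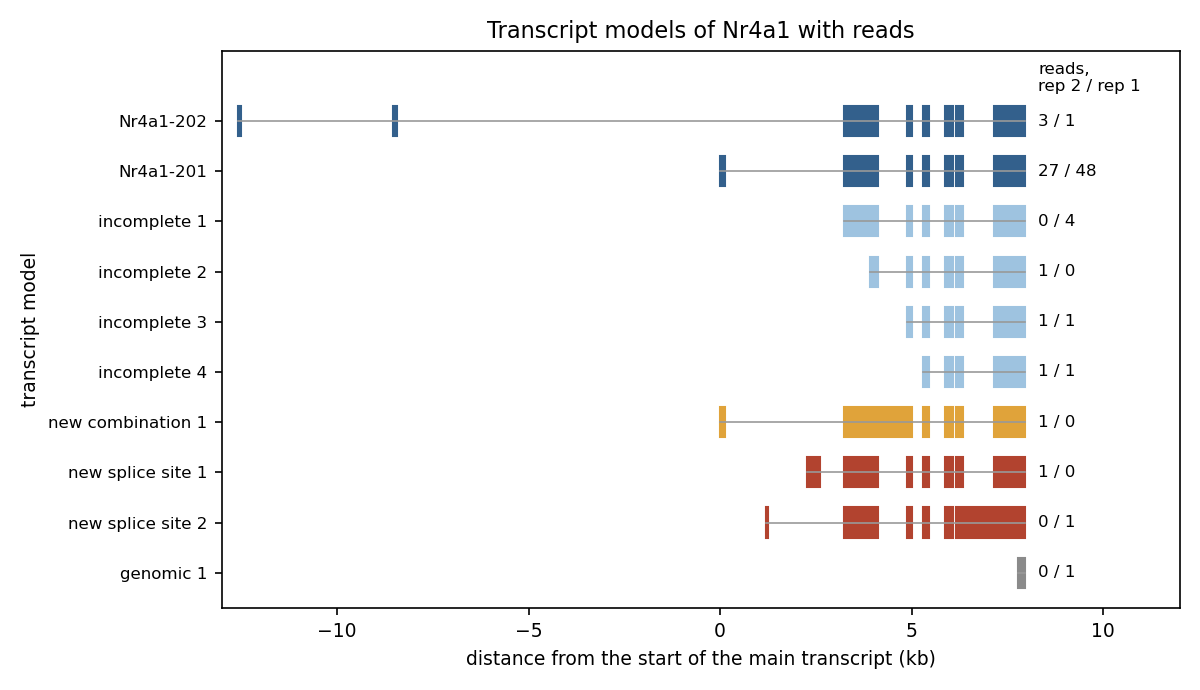
Exons (boxes) and introns (lines) of the 10 Nr4a1 models with reads, by distance from the start of Nr4a1-201 in kb, with the reads in replicate 2 and replicate 1 beside each. Known models are dark blue, incomplete ones light blue, new combinations orange, new splice sites red and genomic ones grey, and Nr4a1-201 holds 27 and 48 reads.

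For the other multi-exon members the reads were few. Fos-201, the coding transcript with 4 exons, held 6 of 6 reads in replicate 2 and 11 of 14 in replicate 1, and the other 3 of replicate 1 were on Fos-203, a processed transcript that starts 801 bases downstream, inside intron 1. Ier3-201 held 5 of 7 reads in replicate 2 and 7 of 7 in replicate 1, with the other 2 of replicate 2 on an incomplete model over exon 2. Spliced copies were thus present for Fos, Ier3 and Nr4a1 in both libraries. The same held for Egr1, on 1 read in replicate 2 and 4 reads in replicate 1.

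Egr1-201 held the 1 read of replicate 2 and 4 of the 12 reads of replicate 1 (33.3%, Wilson interval 13.8 to 60.9). The other 8 reads of replicate 1 were on a single-exon genomic model that runs from the last base of exon 1 through intron 1, 678 bases long, into exon 2. Without genomic models the log2 ratio of Egr1 was -1.86 in place of -3.37. For Atf3, the 2 reads of replicate 2 were on a genomic model of 329 bases at the 3′ end and the 3 of replicate 1 on the coding Atf3-201, which has 4 exons. Without genomic models Atf3 was at 0 reads in replicate 2, against 3 reads in replicate 1.

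**Figure D4:**
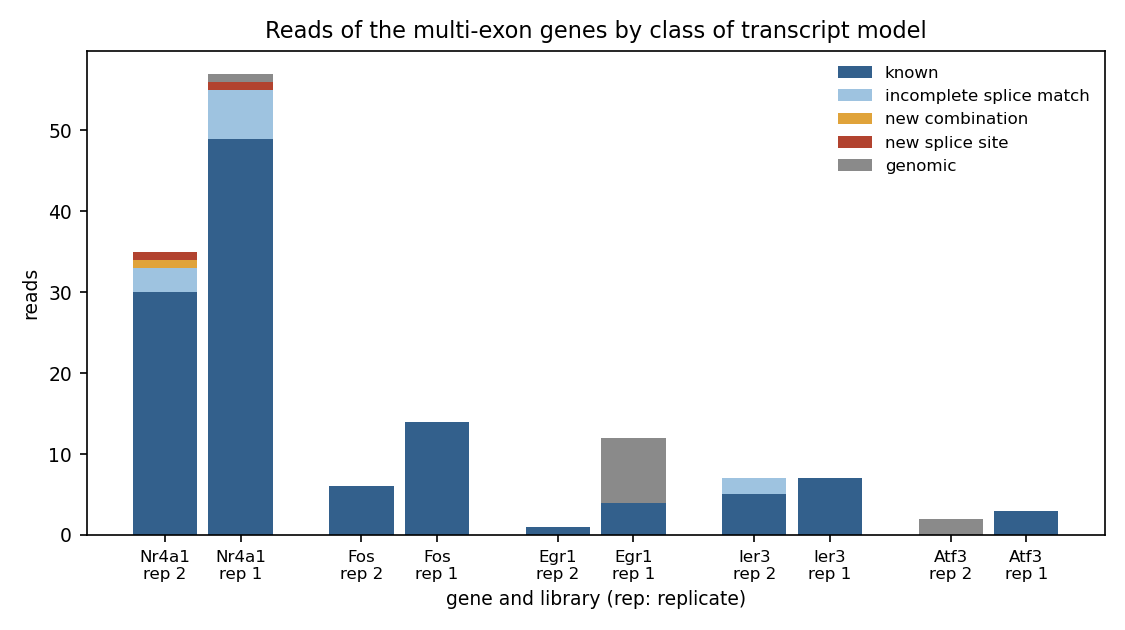
Reads of the 5 multi-exon genes with reads by class of transcript model, replicate 2 (rep 2) left of replicate 1 (rep 1) for each gene. Known models carry most reads of Nr4a1, Fos and Ier3, and the genomic class takes 8 of 12 Egr1 reads in replicate 1 and both Atf3 reads in replicate 2.

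Shared sequence between members could let a read count for the wrong gene, so the annotated main transcripts were searched for identical runs. Of 45 pairs, 22 shared no run of 12 bases or more, and the longest, of 20 bases, lay in the coding parts of Jun and Jund. It is shown in capitals within 60 bases, of which 39 are identical in place, from GENCODE release M21.
Jun-201, chromosome 4, bases 1622 to 1681 of the transcript: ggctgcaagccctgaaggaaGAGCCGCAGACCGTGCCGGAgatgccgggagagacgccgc
Jund-201, chromosome 8, bases 795 to 854 of the transcript: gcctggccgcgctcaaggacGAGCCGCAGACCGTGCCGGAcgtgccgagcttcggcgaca
Against transcripts of 3189 bases for Jun and 1668 bases for Jund, a run of 20 bases is short.

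Some members overlap annotated genes on the other strand, and how strand was set in the deposited counts is not given in the sources used here. Jund overlaps the antisense gene Gm11175 over 919 bases, and that gene had 2 reads in replicate 2 and 5 in replicate 1. Jun overlaps Junos by 689 bases, and Junos had 1 read in each library. The end of annotated Junb overlaps Prdx2 by 351 bases, and Prdx2 had 971 reads in replicate 2 and 865 in replicate 1, of which none overlapped the exon of Junb-201, which carried the known Junb reads. Against 650 and 745 reads for Jund, and 36 and 42 for Jun, the antisense reads were few. Since no opposite-strand read lay over the exon of Junb-201, the exon-only alternative added none to Junb. Its log2 ratio of -1.18 there was fixed beforehand.

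Other immediate early genes, a list of 50 chosen for this class of response, gave reads for 46, and 28 were tested. None was called in either direction, where 3.23% of all tested genes were. With the adjusted p alone 3 passed, all lower in replicate 2, where 4.1% of all tested genes passed as lower. Tob1 and Btg1 are also among the 3 most abundant of the list by CPM, and Dusp1 was named after its value was seen. Btg1, an antiproliferative gene, had 110 reads (136 CPM) in replicate 2 and 170 reads (247 CPM) in replicate 1, a log2 ratio of -0.86 (adjusted p 3.03e-05, Fisher's exact test). Dusp1, a phosphatase that switches off MAP kinases, had 37 reads (45.6 CPM) and 63 reads (91.5 CPM), a log2 ratio of -0.996 (adjusted p 0.0149, Fisher's exact test). Tob1, an antiproliferative gene of the same family as Btg1, had 173 and 218 reads (213 and 317 CPM), a log2 ratio of -0.57 (adjusted p 0.00267, Fisher's exact test). Of the 28, 25 were lower in replicate 2, where 58.8% of all tested genes had a log2 ratio below 0. The median log2 ratio of the 28 was -0.36, against -0.78 for the 6 tested members and -0.10 for all genes. The list summed to 1988 CPM in replicate 2, against 2577 CPM in replicate 1, and its most abundant genes were Tob1, Nfkbia (224 and 259 CPM), an inhibitor of NF-kappaB, and Btg1. Egr2, Egr3, Ptgs2 and Npas4 were at 0 reads in both libraries.

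AP-1 partners and other bZIP factors (26 genes, 18 tested) had 0 called, where 3.23% of all tested genes were called in either direction. With the adjusted p alone 3 passed, all lower in replicate 2, where 4.1% of all tested genes passed as lower. The median log2 ratio of the list was -0.42. Cebpb, a bZIP factor of differentiation, was the most abundant by CPM, with 1707 CPM in replicate 2, against 2283 CPM in replicate 1, a log2 ratio of -0.42 (adjusted p 2.93e-13, Fisher's exact test). The others were Xbp1, the factor of the unfolded protein response, at 243 and 357 CPM, and Nfe2l1, a regulator of proteasome genes, at 185 and 275 CPM. These 3 are also the 3 most abundant of the list, and Maff was at 0 reads in both libraries.

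Genes upstream of the immediate early response, in cAMP and MAP kinase signalling and serum response (27 genes, 20 tested), had 0 called, against 3.23% of all tested genes. With the adjusted p alone 2 passed, both lower in replicate 2, against the same 4.1% of all tested genes. Prkaca, the catalytic subunit of protein kinase A, had 402 CPM in replicate 2, against 578 CPM in replicate 1 (adjusted p 4.54e-05, Fisher's exact test), and Mapk14, the p38 kinase, 51.8 and 95.9 CPM (adjusted p 0.0280, Fisher's exact test). Prkar1a, the regulatory subunit of protein kinase A, stood highest by CPM at 739 and 789 CPM, and Map2k2, a MAP kinase kinase, followed Prkaca at 200 and 270 CPM. Prkaca and Mapk14 were lower in replicate 2, Mapk14 was named after its value was seen, and the list's median log2 ratio was -0.34.

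Cofactors and brakes of the members (18 genes, 14 tested) had 1 gene called, lower in replicate 2, where 0.967% of all tested genes were: Men1, which encodes menin, a protein that binds JunD and represses it. Men1 had 22 reads (27.1 CPM) in replicate 2 and 43 reads (62.5 CPM) in replicate 1, a log2 ratio of -1.19 (adjusted p 0.0192, Fisher's exact test). Nr5a1 (SF-1), the factor of steroidogenic cells, led the list at 472 CPM in replicate 2, against 671 CPM in replicate 1, followed by Rxrb (155 and 150 CPM) and Dusp6 (144 and 150 CPM). On the adjusted p alone Nr5a1 and Dusp1 were lower as well. With Men1 that made 3 of the 14, where 4.1% of all tested genes passed as lower, and the median log2 ratio was -0.38. Heat shock and stress genes (17 genes, 14 tested) had 0 called, against 3.23% of all tested genes. On the adjusted p alone, 5 of them passed as lower in replicate 2 and 1 as higher. Of all tested genes, 4.1% passed so as lower and 7.93% in either direction. The median log2 ratio of the heat shock and stress genes was -0.52. Their most abundant members were Hspa8 at 1285 CPM in replicate 2, against 2108 CPM in replicate 1, Hsp90ab1 at 1071 and 1493 CPM, and Hspd1 at 1056 and 1166 CPM. The 1 higher was Hspe1, a mitochondrial chaperonin, with 786 CPM in replicate 2, against 584 CPM in replicate 1 (log2 ratio 0.43, adjusted p 0.000104, Fisher's exact test). Lists share some genes, Dusp1 and Nr5a1 among them, and were compared by counts and medians only.

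**Figure D5:**
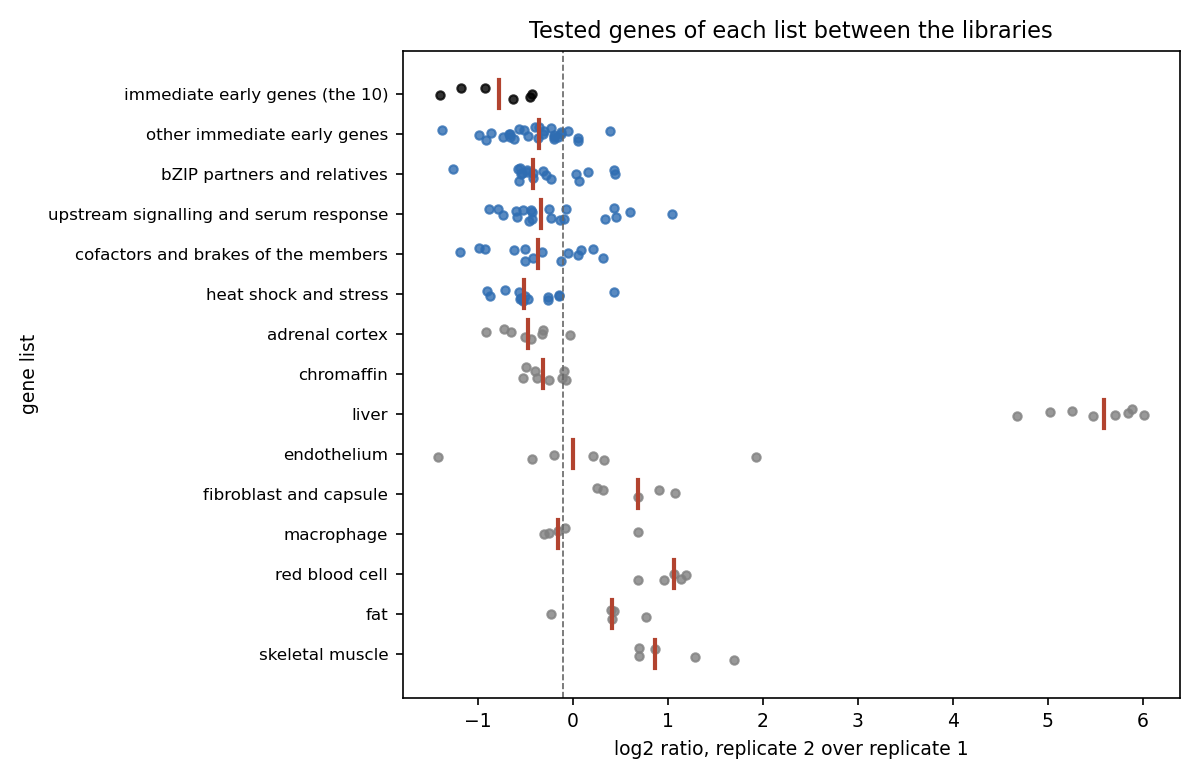
Log2 ratio of replicate 2 over replicate 1 for each tested gene of the immediate early set (black, top), the related lists (blue) and the cell type marker lists (grey), with list medians in red and the median of all tested genes, -0.10, as a dashed line. All 6 tested members lie below the dashed line, and the liver markers lie between 4.68 and 6.02.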

How the data were processed

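Per the labels, total RNA of 2 adrenal libraries was sequenced with long reads, with Ambion mix 1 and Lexogen spike-ins. The authors deposited raw counts of reads per transcript model, 1 table per library, listing models with at least 1 read, and annotation files with coordinates in mm10. Per the file headers, models carry TALON tags, and the deposited notes name GENCODE mouse release 21. The aligner, its version and the filters: not given in the sources used here. Reads were summed per gene, and CPM used mouse reads without spike-ins (2.61% of all reads in replicate 2, 2.73% in replicate 1). Fisher's exact test was two-sided, with Benjamini-Hochberg adjustment. Since 1 library stands on each side, edgeR could not estimate the spread, and it served, with DESeq2, for scaling alternatives only. Intervals are 95%: Wilson for shares, Clopper-Pearson for ratios, Poisson for levels. Reads carry no molecular identifiers, so intervals and limits cover counting error only. The genes named from each list were its 3 most abundant by mean CPM, plus any called, and for the 2 most abundant members the 3 nearest genes. Members, lists and tests were chosen with earlier results of these data known. Python 3.11.15, pandas 2.3.3, scipy 1.17.1, R 4.3.3, edgeR 4.0.16 and DESeq2 1.42.0 were used. A gene of the heat shock and stress list is not reported here.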

Additional observations from a re-analysis of the deposited data

Results flagged for a closer look

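Near Jun, a locus that the deposited tables list as new held 6 reads in replicate 2 and 4 reads in replicate 1. It lies on the strand of Jun, between 2222 and 1868 bases before its start in replicate 2 and between 2231 and 1869 bases before it in replicate 1, has a single exon, and is counted for no gene of the set. Over the exon of Jund, models on the opposite strand held 8 reads in replicate 1, of which 5 belonged to Gm11175 and 3 to a new antisense locus. In replicate 2 such models held 2 reads, all of Gm11175. These values were singled out because they lie outside the reads assigned to the 10 genes and exceed the 3 reads that a count of 0 allows.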

How the results depend on the processing

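Of 72 recomputed log2 ratios of single members, 71 were below 0, and in the main setting 58.8% of all tested genes were. The 72 reuse the same reads and are not separate tests. A changed pseudocount cannot change a sign, and the opposite-strand alternatives left the reads of some members unchanged, so many signs were fixed beforehand. With reads of models on the opposite strand over the whole annotated gene body added, Junb reversed to a log2 ratio of 0.11, its mean level to 1216 CPM, and the summed level of the set to 2458 CPM against 1407 CPM, since Prdx2 reads enter by that rule. Restricted to the exons of the main transcript, an alternative chosen after seeing the data, the sum was 1415 CPM. With known models only, scaled to their own total, the sum was 1917 CPM. Without 1 library it ran from 1125 to 1689 CPM. With a minimum of 10 reads or of 1 read, 2 members were called in place of 1, Egr1 beside Junb, and Egr1 reached the minimum of 10 through 8 reads on a genomic model. Under 7 alternatives without gene body reads, Junb was called, with log2 ratios from -1.18 to -1.08 and adjusted p up to 5.01e-07 by Fisher's exact test. Much of this was fixed beforehand. A pseudocount does not enter the exact test, the exon-only alternative added no read to Junb, and the model alternatives took 1 read from it. Members passing the adjusted p alone numbered 2 in place of 4 with TMM, DESeq2 scaling or known models only. TMM and DESeq2 scaling moved the median of all genes by 0.10 on the log2 scale and gave a median of -0.68 for the members. All calls were 267 (187 higher, 70.0%), against 258 with TMM (81.8% higher) and 256 with DESeq2 (82.4% higher), and from 211 to 324 over the 8 alternatives of scaling, pseudocount, read minimum and model class. For the 5 members with enough reads, shares on known models gave 0 calls, where 113 of 5453 genes were called with known and incomplete models together and 20 of 7520 with at least 10 reads in each library. All of the 5 but Nr4a1 have a single exon and known shares of 98.8% or more in both libraries, which left little room for a call. No paired analysis was possible because the study has a single group. Depth limits Egr1, Fos, Ier3, Atf3 and Fosb, where a few reads decide each value.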
